A study of Mus musculus with 8 samples.

Results

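Hyaluronan is made, cut, bound and sensed by a small set of gene products, and the genes followed here were 10 of these, chosen by name: the synthases Has1, Has2 and Has3, the hyaluronidases Hyal1 and Hyal2, the hyaluronan-binding degradation factor Cemip, the receptors Cd44 and Hmmr, and the matrix binders Tnfaip6 and Vcan. Of these 10, 8 were among the 13437 genes of the gene table. Has1 and Has3 were not analysed here. All transcripts listed for Cd44 (7) and Vcan (3) were followed as well. RNA from the cornea of C57BL/6 female mice, 6 to 8 weeks old, was sequenced. The BAC group, a model of dry eye disease, had 5 µl of 0.2% BAC put on both eyes 2 times a day over 7 days, and the control group had PBS on both eyes. Each group had 4 samples, and no genetic change was named for either. The labels do not give the number of animals or eyes behind a sample, so p-values measure only the spread between these samples.

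Hyaluronan is a long unsulfated sugar polymer that is spun out through the plasma membrane by the Has enzymes from UDP-glucuronic acid and UDP-N-acetylglucosamine. Long chains hold water and space cells apart, while fragments made by hyaluronidases and by Cemip are known to act on CD44 and Toll-like receptors. CD44 is the main cell-surface receptor for hyaluronan, and its RNA is spliced with many variable exons in epithelia and with few or none in most leukocytes and mesenchymal cells. Versican and the protein product of Tnfaip6 bind to hyaluronan chains and build them into a provisional matrix, which is best known from wounds and inflammation.

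After 7 days of BAC the RNA of the synthase Has2, of the extracellular degradation factor Cemip and of hyaluronan-binding matrix proteins was higher, while that of the receptor Cd44 and the lysosomal hyaluronidase Hyal1 was lower. In all, 5 genes rose (Has2, Cemip, Tnfaip6, Vcan and Hmmr), by between 2.53-fold (Hmmr) and 63.3-fold (Vcan) in mean FPKM (a level per transcript length and per library size). Vcan had a PBS mean of 0.128 FPKM, below the filter of 0.5 FPKM over all samples, so it could be called only as higher. Cd44 fell 1.95-fold and Hyal1 fell 1.96-fold, and Hyal2 did not pass the test. The 7 calls were made with limma on log2(FPKM + 1) at an adjusted p of 0.05, against 67.6% of all 12967 genes tested (45.1% higher and 22.6% lower). For these same 7 members no BAC value fell inside the PBS range, against 63.5% of all genes tested (42.6% with all BAC samples above and 20.9% with all below). With calls this common, the count alone does not set these genes apart from others. The median of all genes tested was 0.19 log2 higher with BAC. Relative to that median the 7 called members kept their directions, with changes from -1.13 (Cd44) to 2.76 (Vcan), and Hyal2 lay at -0.08.

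**Figure D1:**
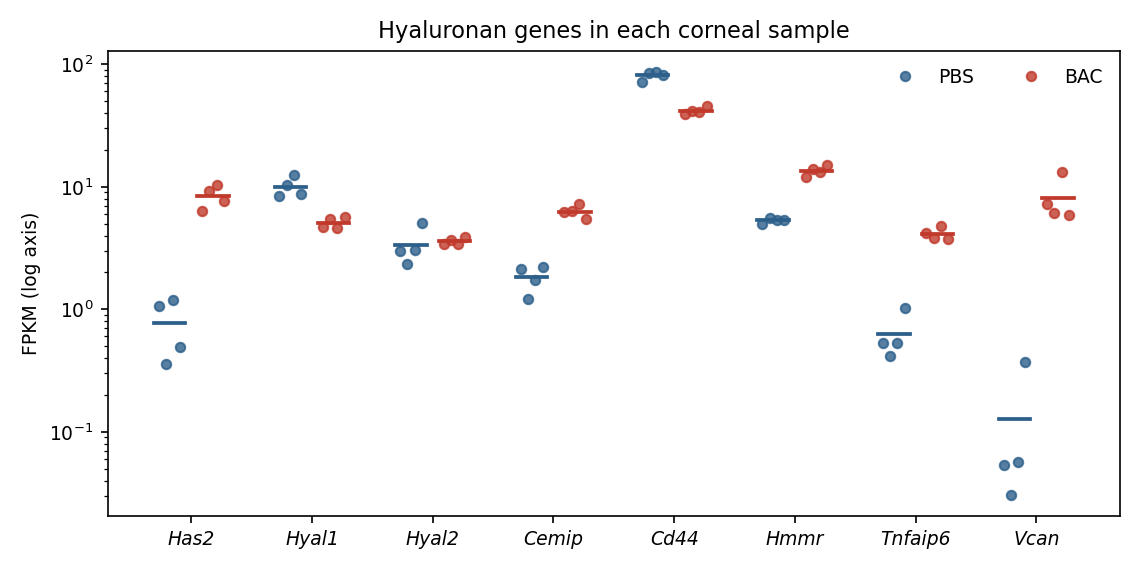
FPKM of the 8 hyaluronan genes in each corneal sample, on a log axis; points are samples and horizontal bars are group means (4 PBS in blue, 4 BAC in red). The groups overlap only for Hyal2, and Cd44 is the most abundant of the 8 in both groups.

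Has2, the hyaluronan synthase gene that responds to wounding and growth factors in many tissues, was at 6.36, 9.18, 10.4 and 7.64 FPKM in BAC samples 1 to 4. In PBS samples 1 to 4 it was at 1.06, 0.360, 1.20 and 0.496 FPKM. Every BAC sample was at least several times above the highest PBS sample. The BAC mean was 8.40 ± 1.77 FPKM (SD, n = 4) and the PBS mean 0.779 ± 0.412 FPKM (SD, n = 4), a 10.8-fold difference (log2 change 2.41, SE 0.19; limma, adjusted p = 3.39e-06). The gene lies on chr15:56665627-56694539 of GRCm38, on the minus strand, and shares 4596 bases with the antisense gene Has2os. The library kit was stranded per the labels, but whether strand was used to count reads is not given in the sources used here, so reads of Has2 and Has2os may not be separated.

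The enzymes that supply the UDP sugars did not move as one group. Of 8 tested genes for synthesis and precursor supply, other than the Has genes, 3 were higher, 0 lower and 5 not called, against 45.1% higher and 22.6% lower over all genes, with a median log2 change of 0.07 against 0.19 over all genes. The 3 that rose act in the hexosamine branch that makes UDP-N-acetylglucosamine. Gfpt2, an isoform of its first enzyme, was at 2.43 ± 0.253 against 0.328 ± 0.0848 FPKM, 7.43-fold higher, and passed the filter on low values (a mean of 0.5 FPKM over all samples) only through its BAC samples. Gnpnat1, which acetylates glucosamine-6-phosphate, was at 5.59 ± 0.478 against 2.13 ± 0.119 FPKM, and Pgm3, the mutase of the following step, was at 4.89 ± 0.368 against 2.33 ± 0.313 FPKM. The other 5 were Gfpt1, Nagk, Uap1, Ugp2 and Ugdh, the last of which makes UDP-glucuronic acid, and their log2 changes ran from -0.27 (Gfpt1) to 0.18 (Ugdh). Gfpt1 and Uap1 act in the same hexosamine branch, so the branch did not rise as a whole. Gfpt1, the other isoform of the first enzyme, was at 29.5 ± 5.18 FPKM with BAC against 35.8 ± 5.91 with PBS, well above Gfpt2. After median-of-ratios scaling, which moves the median of all genes to 0.02, the count was 3 higher and 4 lower. Without BAC 1 it was 4 higher and 1 lower.

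On the side of degradation, Cemip, whose protein drives the cutting of long hyaluronan outside lysosomes, was at 6.18, 6.32, 7.19 and 5.41 FPKM in BAC samples 1 to 4. PBS samples 1 to 4 were at 2.14, 1.21, 1.75 and 2.23 FPKM. The lowest BAC sample was above the highest PBS sample. The means were 6.27 ± 0.726 and 1.83 ± 0.464 FPKM, 3.42-fold higher with BAC (log2 change 1.37, SE 0.13; limma, adjusted p = 1.31e-05). Cemip lies on chr7:83932857-84086502, minus strand.

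Hyal1, a lysosomal hyaluronidase, went the other way. It was at 4.66, 5.41, 4.58 and 5.72 FPKM in BAC samples 1 to 4 and at 8.39, 10.4, 12.4 and 8.72 FPKM in PBS samples 1 to 4. All BAC samples were below all PBS samples. The means were 5.09 ± 0.560 against 9.98 ± 1.83 FPKM (log2 change -0.84, SE 0.12; limma, adjusted p = 0.000225). Hyal1 (chr9:107576927-107581710, plus strand) shares 893 bases with Hyal3 and 2824 bases with Naa80 on the same strand and 4784 bases with the antisense gene Gm16343. Its level is therefore uncertain where reads could be split among them.

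Hyal2, a hyaluronidase anchored on the cell surface that is known to cut long chains, lies beside Hyal1 on the same strand (chr9:107567945-107572779). Hyal2 shares 471 bases with the antisense gene Gm9917, whose reads may not be separated from its own. It was at 3.39, 3.71, 3.42 and 3.87 FPKM in BAC samples 1 to 4 and at 2.99, 2.36, 3.06 and 5.10 FPKM in PBS samples 1 to 4. The BAC samples lay close together, inside the PBS range, and PBS 4 was above all of them. The means were 3.60 ± 0.230 and 3.38 ± 1.19 FPKM (log2 change 0.11, SE 0.16, 95% confidence interval -0.26 to 0.47; limma, adjusted p = 0.581). Without PBS 4 the PBS mean was 2.80 ± 0.382 FPKM (n = 3) and Hyal2 passed as higher with BAC (log2 change 0.28; limma, adjusted p = 0.0297), so 1 library decided that call. After median-of-ratios scaling the change was -0.06 and after quantile normalization -0.25, neither of them called.

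The wider degradation list held 9 genes, of which 4 were tested. All 4 were called, 3 higher and 1 lower, against 67.6% of all genes called, with a median log2 change of 1.28. Hexa and Gusb encode lysosomal enzymes that trim hyaluronan fragments and other glycosaminoglycans from their ends. Hexa was at 68.3 ± 4.79 against 14.4 ± 2.66 FPKM, 4.74-fold higher, and Gusb at 17.0 ± 0.491 against 3.71 ± 0.459 FPKM, 4.59-fold higher. Tmem2, a Cemip relative at the cell surface, was at 18.2 ± 1.65 against 11.4 ± 0.478 FPKM, 1.59-fold higher.

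**Figure D2:**
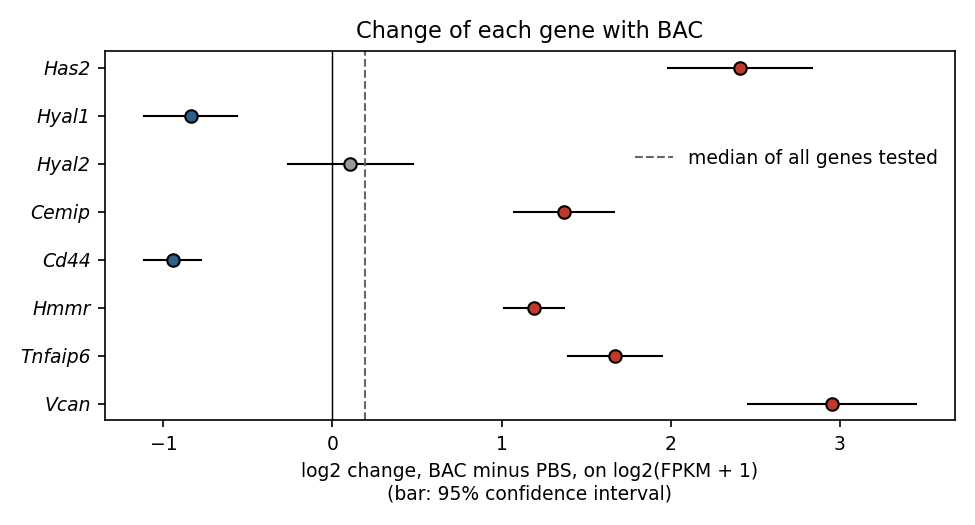
Log2 change of each hyaluronan gene on log2(FPKM + 1), BAC minus PBS, with its 95% confidence interval from limma (4 samples per group). Red points passed as higher, blue as lower, and the grey point (Hyal2) did not pass; the dashed line is the median of all genes tested, 0.19.

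Cd44 was the most abundant of the genes followed, in both groups. It was at 39.4, 41.2, 40.7 and 45.6 FPKM in BAC samples 1 to 4 and at 72.1, 85.3, 86.7 and 81.1 FPKM in PBS samples 1 to 4. All BAC samples were below all PBS samples, with a wide gap. The means were 41.7 ± 2.68 and 81.3 ± 6.55 FPKM, 1.95-fold lower with BAC (log2 change -0.94, SE 0.07; limma, adjusted p = 3.67e-06). In bulk RNA, fewer cells that carry a transcript and less of it per cell cannot be told apart. The gene (ENSMUSG00000005087.17) lies on chr2:102811141-102901665 of GRCm38, on the minus strand. It shares 107 bases with the small RNA gene Gm23731 on the opposite strand. The authors' gene value followed the transcripts weighted by their length. With the transcripts simply summed, Cd44 was at 60.4 ± 6.26 against 103 ± 8.75 FPKM, 1.71-fold lower.

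The 7 Cd44 transcripts of the table share the 5′ constant exons, apart from where the first one starts, and differ in how many of 10 variable exons follow, numbered here from 1 to 10 in the order of transcription. Cd44-201 carries all 10, Cd44-208 carries 7 (from exon 4), Cd44-202 carries 5 (from exon 6), Cd44-207 carries 5 (exon 5, 6 and 8 to 10), Cd44-205 carries 3 (from exon 8), Cd44-206 carries exon 10 alone and Cd44-203, the standard form, carries none. The splice junction after the last 5′ constant exon, which ends at position 102853015 of chromosome 2, tells these forms apart by what follows it. It is shown for the forms with the full series and with no variable exon, which were called in opposite directions, and for the form with exon 10 alone, which is nearest to the standard form. Each line gives 30 bases of the constant exon in lower case and the first 45 bases of the next exon in capitals, from the GENCODE M21 transcripts (GRCm38, transcribed strand, chromosome 2).
Cd44-201: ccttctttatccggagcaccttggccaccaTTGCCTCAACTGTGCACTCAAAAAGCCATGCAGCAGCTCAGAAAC
Cd44-206: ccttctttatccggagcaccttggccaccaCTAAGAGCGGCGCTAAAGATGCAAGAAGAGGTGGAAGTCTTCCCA
Cd44-203: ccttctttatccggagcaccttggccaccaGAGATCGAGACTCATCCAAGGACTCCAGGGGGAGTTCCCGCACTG
The lower-case part is the same in all 7 transcripts and the capitals differ in all 7. In Cd44-201 the capitals open variable exon 1 (chr2:102848657-102848782, 126 bases), in Cd44-206 they open variable exon 10 (chr2:102831330-102831536, 207 bases), and in Cd44-203 they open the next constant exon.

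The long and the standard form of Cd44 changed in opposite directions. Cd44-201, the form with all variable exons, was at 42.3, 36.7, 40.8 and 44.2 FPKM in BAC samples 1 to 4 and at 82.1, 87.1, 89.5 and 80.9 FPKM in PBS samples 1 to 4. Cd44-203, the form with none, was at 3.85, 12.4, 8.87 and 9.20 FPKM in BAC samples 1 to 4 and at 0.533, 1.16, 1.12 and 1.48 FPKM in PBS samples 1 to 4. Neither form overlapped between the groups, which held for 37.1% of all transcripts tested (24.5% with BAC above and 12.6% below), and BAC 1 was the lowest of the BAC samples for the standard form. Cd44-201 was 2.07-fold lower with BAC, at 41.0 ± 3.19 against 84.9 ± 4.09 FPKM (log2 change -1.03, SE 0.07; limma over 23349 transcripts, adjusted p = 1.98e-05). Cd44-203 was 7.99-fold higher, at 8.59 ± 3.54 against 1.07 ± 0.395 FPKM (log2 change 2.14, SE 0.32; limma, adjusted p = 0.0012). Of all transcripts tested 34.6% were called, 23.0% as higher and 11.6% as lower.

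The other 5 Cd44 transcripts were each under 10% of the gene's summed FPKM in the mean of either group. Cd44-202 and Cd44-207, both with 5 variable exons, passed as lower, with log2 changes of -0.94 (limma, adjusted p = 0.0191) and -2.25 (limma, adjusted p = 0.0312). Cd44-207 had a BAC mean of 0.383 FPKM and passed the filter only through its PBS samples, so it could be called only as lower. Both calls were fragile. Cd44-202 missed the threshold without BAC 1, BAC 3, BAC 4 or PBS 3, with limma's adjusted p up to 0.0533. Cd44-207 missed it in 6 of 8 fits with 1 library left out, all but those without BAC 4 or PBS 1, with limma's adjusted p up to 0.0803. It was listed at 0 in BAC 1 and BAC 2, and its mean was 17.6-fold lower with BAC but 153-fold lower without BAC 4. Cd44-206, with exon 10 alone, did not pass (log2 change 1.14; limma, adjusted p = 0.0613), and without BAC 1 it passed as higher (1.54; limma, adjusted p = 0.00212). Cd44-205 (0.60, or 0.36 without BAC 4; limma, adjusted p = 0.148) and Cd44-208 (-0.50; limma, adjusted p = 0.119) did not pass. For Cd44-208 the change passed after quantile normalization, at -0.74, and without PBS 1, at -0.66.

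**Figure D3:**
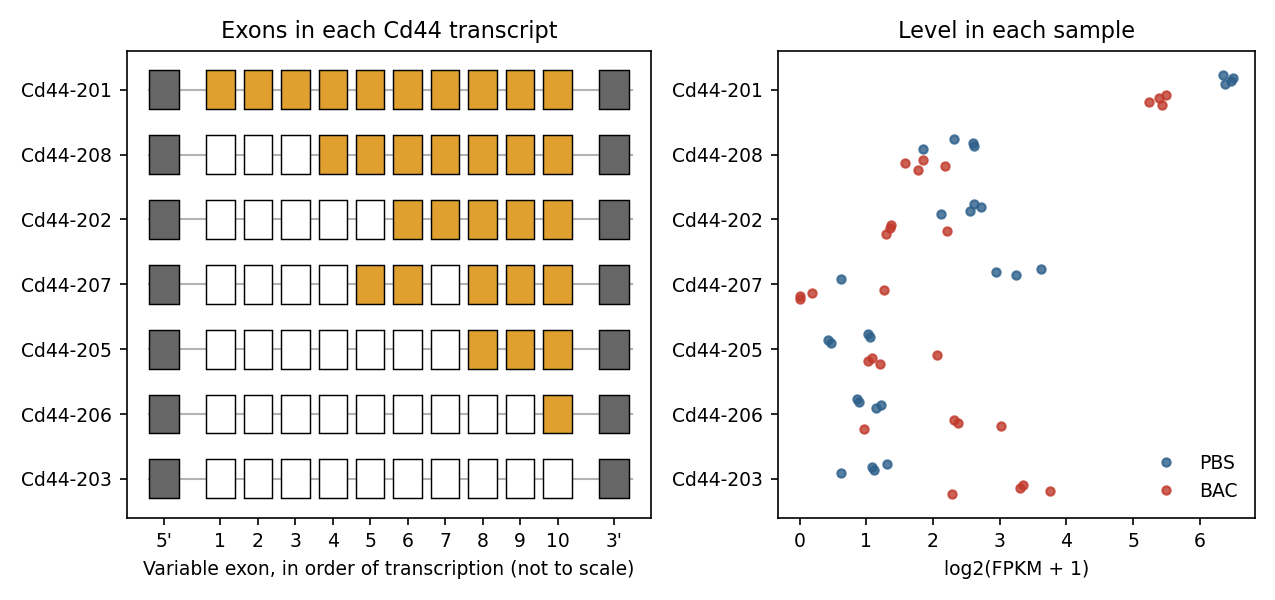
Left, the variable exons carried by each Cd44 transcript (filled boxes), in the order of transcription and not to scale, between the 5′ and 3′ constant parts (grey). Right, log2(FPKM + 1) of each transcript in each of 4 PBS (blue) and 4 BAC (red) samples; the form with 10 variable exons is lower in every BAC sample and the form with 0 is higher in every BAC sample.

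As a share of the summed Cd44 transcript FPKM, the standard form made up 7.37%, 19.3%, 15.1% and 13.9% in BAC samples 1 to 4. In PBS samples 1 to 4 it made up 0.588%, 1.07%, 1.02% and 1.42%. Every BAC sample was above every PBS sample. The mean share was 13.9 ± 4.94% with BAC against 1.02 ± 0.340% with PBS, a difference of 12.9 percentage points (two-sided exact permutation p = 0.0286, which is as low as 70 assignments allow; adjusted over 10 shares, p = 0.0714). The share of Cd44-201 was 80.8%, 57.0%, 69.6% and 66.9% with BAC and 90.5%, 80.4%, 81.5% and 77.3% with PBS. These values overlapped, since BAC 1 lay inside the PBS range, and the difference of -13.9 points did not pass (exact permutation test, p = 0.0857; adjusted p = 0.143).

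Among the shares of the other forms, those with few variable exons were higher with BAC in all samples. Cd44-206 was 5.47 points higher and Cd44-205 2.03 points higher, with no overlap between groups (exact permutation test, p = 0.0286 and adjusted p = 0.0714 for each). The share of Cd44-207 differed by -5.73 points (exact permutation test, p = 0.0571; adjusted p = 0.114). No share passed once adjusted. The shares with no overlap already had the smallest p that 70 assignments allow, so their miss is set in part by the number of samples. Weighted by FPKM, a Cd44 transcript carried a mean of 7.51 ± 0.872 variable exons with BAC (range 6.52 to 8.64) and 9.10 ± 0.284 with PBS (range 8.82 to 9.49), and the ranges did not overlap. Transcripts with at least 1 variable exon made up 86.1 ± 4.94% with BAC and 99.0 ± 0.340% with PBS, so most Cd44 RNA carried variable exons in both groups. Transcript values are estimates from reads shared by all forms, and the annotated forms also differ in their last exon, which is 3197 bases long in Cd44-201 and Cd44-207, 1791 in Cd44-203 and 205 in Cd44-206. Splicing and the choice of 3′ end cannot be told apart from these values.

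**Figure D4:**
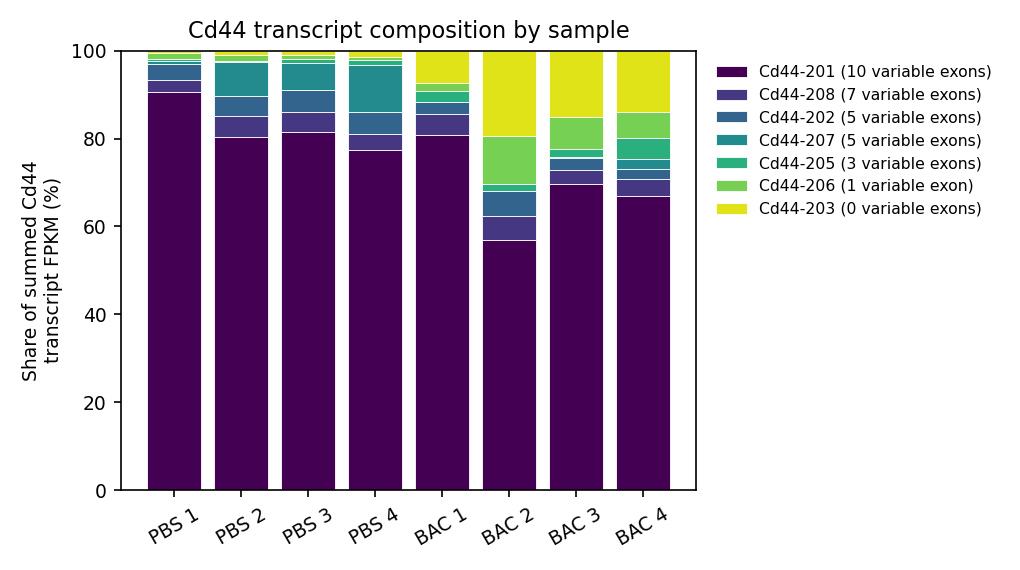
Share of each Cd44 transcript in the summed Cd44 transcript FPKM of each sample, in percent, ordered from 10 variable exons (bottom) to 0 (top). The standard form (top) makes up 0.588% to 1.42% in the 4 PBS samples and 7.37% to 19.3% in the 4 BAC samples.

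Of 12 tested splicing regulators known for Cd44, 7 were higher, 2 lower and 3 not called, with a median log2 change of 0.31 against 0.19 over all genes. With 67.6% of all genes called, this count is near the background and is not a result about these regulators. The 2 that fell were Esrp1 and Esrp2, the epithelial splicing regulators known to promote inclusion of Cd44 variable exons. Esrp1 was at 24.2 ± 1.87 FPKM with BAC against 43.7 ± 3.06 with PBS (log2 change -0.83), and Esrp2 at 17.1 ± 2.55 against 39.1 ± 2.22 FPKM (log2 change -1.16). Hnrnpa1, a splicing repressor in many transcripts, was at 342 ± 22.5 against 209 ± 9.33 FPKM, 1.64-fold higher. After median-of-ratios scaling the list held 4 higher and 3 lower genes.

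Of 11 tested genes whose products bind or cut CD44, 9 were higher, 1 lower and 1 not called, against 45.1% higher and 22.6% lower over all genes. Their median log2 change was 1.62, with a range of -2.04 to 5.48. Of the 9, 1 could be called only as higher, with a PBS mean below the filter, and after median-of-ratios scaling the count was 7 higher and 2 lower. The ezrin-radixin-moesin proteins tie the tail of CD44 to actin. Ezr, the form typical of epithelia, was at 59.9 ± 7.14 against 249 ± 14.6 FPKM, 4.15-fold lower with BAC. Msn, the form typical of leukocytes and endothelium, was at 80.1 ± 10.1 against 3.28 ± 0.957 FPKM, 24.4-fold higher. Rdx, the third of these linkers, was the 1 gene not called, with a log2 change of 0.04. Srgn, a proteoglycan of blood cell granules that binds CD44, was at 72.9 ± 34.3 against 0.558 ± 0.274 FPKM, 131-fold higher.

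Markers of the cell types of the cornea also differed between the groups, where 45.1% of all genes tested were higher and 22.6% lower. The summed FPKM of 8 corneal epithelial markers was 4470 to 5727 per sample with BAC and 21592 to 23450 with PBS, with 5 of them lower and 2 higher. The sum is carried by a few abundant genes. The corneal keratin gene Krt12 was 979-fold lower, at 10.5 ± 2.98 against 10325 ± 228 FPKM, and Krt14, a keratin of basal epithelial cells, was higher, at 2510.3 ± 331 against 229 ± 29.1 FPKM. The epithelial adhesion gene Epcam was 2.40-fold higher and Cdh1, at 115 ± 11.1 against 109 ± 6.65 FPKM, was not called. All 8 monocyte and macrophage markers were higher, with sums of 734 to 962 FPKM against 26.7 to 37.7. Of 8 neutrophil markers 6 were in the table and all 6 were higher, with sums of 421 to 1268 against 2.93 to 23.3 FPKM, and 4 of them were listed at 0 in at least 1 PBS sample (Mmp9, Retnlg, Cxcr2 and Csf3r). Of these 6, 5 had a PBS mean below the filter, as did 2 of the macrophage markers, so that they could be called only as higher. Only 4 of 8 T, B and NK cell markers were in the table, with sums of 3.38 to 5.27 against 0 to 0.0723 FPKM, and each of the 4 (Cd3d, Cd3e, Cd4 and Nkg7) was listed at 0 in at least 1 PBS sample.

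In the stroma and vessels, all 6 myofibroblast markers were higher, 1 of them with a PBS mean below the filter, with sums of 811 to 1196 against 14.8 to 44.1 FPKM. All 6 vascular endothelial markers were higher, with sums of 107 to 140 against 6.07 to 13.3 FPKM. Of 6 stromal keratocyte markers 2 were higher and 3 lower, with sums of 1096 to 1367 against 528 to 1117 FPKM. All 5 measured conjunctival epithelial markers were higher, with sums of 2676 to 3583 against 1009 to 1416 FPKM. The stromal keratocyte sums overlapped between the groups. The other marker sums moved with the change of Cd44, its transcripts, Has2, Vcan and their partners. The part of the marked cell types in those results was not tested.

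Hmmr, the other receptor followed, encodes a hyaluronan-binding protein that is best known on the mitotic spindle. It was at 11.9, 14.0, 13.1 and 15.0 FPKM in BAC samples 1 to 4 and at 4.99, 5.60, 5.39 and 5.40 FPKM in PBS samples 1 to 4. Relative to their mean, its PBS values were the tightest of the 8 genes, and all BAC samples were above them. The means were 13.5 ± 1.32 and 5.34 ± 0.258 FPKM, 2.53-fold higher with BAC (log2 change 1.19, SE 0.08; limma, adjusted p = 1.16e-06). Hmmr lies on chr11:40701395-40733422, minus strand. Of 15 other mitosis genes, 14 were higher, 0 lower and 1 not called, against 45.1% higher over all genes, with a median log2 change of 1.22, close to that of Hmmr. Bub1, a spindle checkpoint kinase, was at 12.1 ± 1.53 against 4.02 ± 0.488 FPKM, Tpx2, a spindle assembly factor, at 24.3 ± 3.79 against 9.22 ± 0.530 FPKM, and the cyclin gene Ccnb1 was 2.38-fold higher.

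The list of other receptors and binders of hyaluronan held 24 genes, of which 10 were tested. Of these 10, 8 were higher, 0 lower and 2 (Tlr4 and Habp4) not called, against 45.1% higher over all genes. Their median log2 change was 0.93, and after quantile normalization 6 were higher. The Toll-like receptor gene Tlr4 ran from 0.854 to 7.62 FPKM with BAC and from 0.564 to 5.00 with PBS. Its relative Tlr2 was 1.92-fold higher with BAC. Of the 8, 2 had a PBS mean below the filter of 0.5 FPKM, Stab1 among them, so that their direction was fixed by the filter. Stab1, a scavenger receptor of macrophages and sinusoidal endothelium, was at 8.65 ± 1.31 against 0.494 ± 0.125 FPKM, 17.5-fold higher. Layn, a membrane C-type lectin, was at 4.72 ± 0.747 against 1.06 ± 0.557 FPKM, 4.45-fold higher. C1qbp, a hyaluronan-binding protein found mainly in mitochondria, was at 28.5 ± 3.33 against 13.1 ± 1.15 FPKM, 2.17-fold higher.

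Tnfaip6 encodes TSG-6, an inflammation-induced protein that moves heavy chains of inter-alpha-inhibitor onto hyaluronan. It was at 4.20, 3.79, 4.77 and 3.76 FPKM in BAC samples 1 to 4 and at 0.531, 0.415, 0.526 and 1.02 FPKM in PBS samples 1 to 4. PBS 4 was the highest control and was still below every BAC sample. The means were 4.13 ± 0.472 and 0.623 ± 0.270 FPKM, 6.63-fold higher with BAC (log2 change 1.67, SE 0.12; limma, adjusted p = 2.3e-06). Tnfaip6 lies on chr2:52038009-52056686, plus strand.

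Vcan, a large chondroitin sulfate proteoglycan that binds hyaluronan with its N-terminal domain, showed the largest change of the 8. It was at 7.27, 6.11, 13.1 and 5.84 FPKM in BAC samples 1 to 4 and at 0.0535, 0.0308, 0.0568 and 0.369 FPKM in PBS samples 1 to 4. BAC 3 was well above the other BAC samples and PBS 4 well above the other PBS samples, with no overlap between groups. The means were 8.08 ± 3.39 and 0.128 ± 0.162 FPKM, 63.3-fold higher with BAC (log2 change 2.95, SE 0.22; limma, adjusted p = 2.5e-06). Without PBS 4 the PBS mean was 0.0470 ± 0.0142 FPKM (n = 3) and the ratio 172-fold. Without BAC 3 the BAC mean was 6.41 ± 0.759 FPKM (n = 3) and the log2 change 2.72. Vcan passed the filter on low values only through its BAC samples, which fixes its direction. It lies on chr13:89655312-89742509, minus strand. On the opposite strand it shares 3050 bases with the antisense gene Gm4117 and 601 bases with the pseudogene Gm16318. As for Has2, reads of these genes may not be separated.

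Vcan forms differ by a pair of large exons that carry the chondroitin sulfate chains. Vcan-203 carries both, a 2880-base exon (chr13:89702918-89705797) and a 5217-base exon (chr13:89688285-89693501), which is the layout of the V0 form. Vcan-206 carries only the latter, as V1 does, and Vcan-208 is a fragment of 861 bases in 3 exons. The junction that tells V0 and V1 layouts apart is shown because the control samples listed only one of them; 30 bases of the shared exon, which ends at position 89712205 of chromosome 13, are in lower case, and 45 bases of the next exon are in capitals (GENCODE M21, GRCm38, transcribed strand).
Vcan-203: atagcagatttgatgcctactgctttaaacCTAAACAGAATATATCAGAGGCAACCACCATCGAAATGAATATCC
Vcan-206: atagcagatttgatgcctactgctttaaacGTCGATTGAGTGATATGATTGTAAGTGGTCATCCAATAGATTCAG
The capitals of Vcan-203 open the 2880-base exon, and those of Vcan-206 open the 5217-base exon.

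All 3 Vcan transcripts had PBS means below 0.5 FPKM and passed the filter only through their BAC samples, so they could be called only as higher. Vcan-203 was at 5.63, 4.86, 11.1 and 6.55 FPKM in BAC samples 1 to 4 and at 0.0464, 0.0358, 0.0661 and 0.420 FPKM in PBS samples 1 to 4. It was 49.4-fold higher with BAC, at 7.02 ± 2.77 against 0.142 ± 0.186 FPKM (log2 change 2.77; limma, adjusted p = 7.5e-05), and 142-fold higher without PBS 4. Vcan-206 was at 3.60, 2.999 and 5.85 FPKM in BAC samples 1 to 3, at 0.00298 FPKM in BAC 4, and listed at 0 in all 4 PBS samples. In BAC 4 nearly no FPKM was thus assigned to the V1 layout, while its V0 layout was in the range of the other BAC samples. These values are estimates from reads that both forms share, and reads over the junction were not examined. Vcan-206 passed as higher (log2 change 1.75; limma, adjusted p = 0.0389), but missed the threshold in every fit with 1 library left out except that without BAC 4, with limma's adjusted p up to 0.0933. The fragment Vcan-208 was at 2.94, 1.49, 1.61 and 1.35 FPKM with BAC and at 0.229, 0, 0 and 0.139 FPKM with PBS. Its ratio was 20.1-fold (log2 change 1.36; limma, adjusted p = 0.00102) and 40.1-fold without PBS 1. Within the BAC samples, Vcan-206 made up 29.6%, 32.1%, 31.6% and 0.0377% of the summed Vcan FPKM. The PBS shares rest on totals of 0.0358 to 0.559 FPKM and are not read further.

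Genes for versican cleavage and matrix partners rose together with Vcan. All 12 tested were higher, against 45.1% of all genes, with a median log2 change of 2.05 against 0.19 over all genes, and 4 of them had a PBS mean below the filter of 0.5 FPKM, so that their direction was fixed by the filter. Adamts1, a protease that cuts versican, was at 17.0 ± 1.18 against 0.861 ± 0.253 FPKM, 19.8-fold higher. Tnc, which encodes tenascin-C, was at 122 ± 16.2 against 2.85 ± 0.746 FPKM, 42.8-fold higher, and is also 1 of the 6 myofibroblast markers. Fbln2, a fibulin that binds the C-terminal domain of versican, was at 31.8 ± 2.74 against 2.26 ± 0.622 FPKM, 14.1-fold higher.

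**Figure D5:**
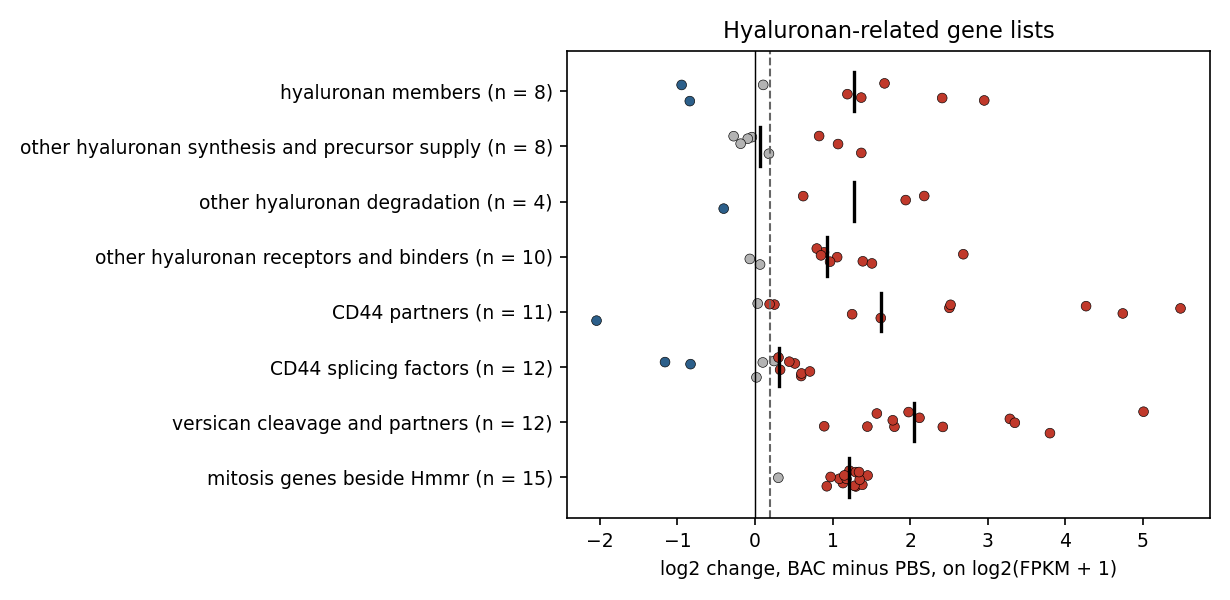
Log2 change, BAC minus PBS on log2(FPKM + 1), of each tested gene in the hyaluronan set and 7 related lists; red points passed as higher, blue as lower and grey points did not pass (limma). Black bars are list medians and the dashed line is the median of all genes tested, 0.19; versican partners and mitosis genes lie to the right of it, precursor supply around it.

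On the FPKM scale, which is per length, the order of the 8 genes changed between the groups. With PBS, Cd44 was followed by Hyal1, Hmmr, Hyal2, Cemip, Has2, Tnfaip6 and Vcan, and the ranges of neighbours overlapped between Hmmr and Hyal2 and between Has2 and Tnfaip6. With BAC the order was Cd44, Hmmr, Has2, Vcan, Cemip, Hyal1, Tnfaip6 and Hyal2, and the ranges of all neighbours from Has2 downward overlapped. Hyal1 thus went from place 2 to place 6 and Has2 from place 6 to place 3.

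The genes most like Cd44 over the 8 samples, by the root mean square difference of log2(FPKM + 1) after each gene's own PBS mean was taken off, were Zfp704 (0.0545), Ikzf3 (0.0651) and Tgfbr1 (0.0661). For Vcan they were Ctla2a (0.151), Antxr2 (0.189) and Lama4 (0.206), and for Hmmr Arid5a (0.0562), Cenpi (0.0565) and Ccdc88c (0.0566). The measure reads size as well as direction, but on log2(FPKM + 1), where the pseudocount of 1 understates changes of low genes. Low genes can therefore match with a larger ratio of mean FPKM. Arid5a was at 1.503 ± 0.175 FPKM with BAC against 0.0874 ± 0.0319 with PBS, while Hmmr was at 13.5 ± 1.32 against 5.34 ± 0.258. Ikzf3 was at 0.327 ± 0.0240 against 1.47 ± 0.132 FPKM, while Cd44 was at 41.7 ± 2.68 against 81.3 ± 6.55. Tgfbr1, a receptor for TGF-beta, was at 14.1 ± 0.601 FPKM with BAC against 29.1 ± 0.955 with PBS. Lama4, a laminin chain of vessel walls, was at 10.3 ± 1.31 against 0.447 ± 0.156 FPKM.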

How the data were processed

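RNA was extracted from mouse cornea and sequenced from a stranded kit, per the labels' protocols. The authors deposited FPKM for 13437 genes and 25635 transcripts; the submitters' processing notes name GRCm38 as the build, and StringTie 1.3.3 and HISAT2 2.1.0 as tools. Summed FPKM ran from 268629 to 283538 per sample and depth is unknown, so no counting intervals are given; an exact 0 is called listed at 0. Between 56 and 84 genes per BAC sample and 281 to 403 per PBS sample were listed at 0. Libraries of one group correlated across genes with Pearson's r of 0.977 to 0.986.

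Groups and replicate numbers came from the sample titles. Genes and transcripts were kept where the mean of the 8 samples reached 0.5 FPKM. They were fitted on log2(FPKM + 1) by limma 3.58.1 (R 4.3.3), with a trended prior, group as the only term and Benjamini-Hochberg adjustment over all 12967 genes or 23349 transcripts. Fold values are ratios of mean FPKM; log2 changes carry the pseudocount of 1 and understate changes of low genes. Transcript shares were compared with exact permutation tests (70 assignments) in scipy 1.17.1. Exon structures and junctions came from GENCODE M21, which held all 8 gene identifiers with their versions. The fit was tested on simulated tables.

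The members and lists were chosen with earlier results of these data known. Named were all members, every Cd44 and Vcan transcript (in full at a mean share of at least 10%), in each list the 3 genes of lowest adjusted p (fewer where fewer were measured), and for Cd44, Vcan and Hmmr the 3 most similar genes; Gfpt1, Nagk, Uap1, Ugp2, Ugdh, Rdx, Krt12, Krt14, Epcam and Cdh1 were added after their values were seen, and 1 gene of the degradation list is not reported here by name. Alternatives were another pseudocount (0.1), no filter or a filter at 2, 3 scalings, an untrended and a robust prior, sample weights, a replicate block and leaving out single samples. Count models were not run, since the tables hold no counts. The authors' own comparison tables were not used here.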

Additional observations from a re-analysis of the deposited data

Results flagged for a closer look

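In groups of 4 samples, 1 sample stood apart from the other 3 by Dixon's criterion in 8 of 49 groups checked. For independent, normally spread values the criterion flags about 1 in 20 groups. The groups here are not independent, since a gene and its transcripts, or a level and its share, rest on the same reads. The count is therefore not read as an excess over chance. PBS 4 stood high for Vcan, at 0.369 FPKM, and for its transcript Vcan-203, at 0.420 FPKM; it was also the highest control for Hyal2 and Tnfaip6. BAC 1 stood high for the fragment Vcan-208, at 2.94 FPKM. BAC 2 stood high for Cd44-202, both in level, at 3.63 FPKM, and in share, at 5.63%. BAC 4 stood high for Cd44-205, at 3.17 FPKM, and for Cd44-207, at 1.40 FPKM and 2.11% of the summed Cd44 FPKM. These are values of single libraries, and their origin was not tested.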

How the results depend on the processing

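The 5 higher and 2 lower members kept their direction and passed under all 11 other settings and all 8 fits with 1 sample left out. For Vcan, with a PBS mean of 0.128 FPKM, the direction was fixed wherever the filter of 0.5 FPKM or that of 2 was used. With the filter at 2 it was also fixed for Has2, Tnfaip6 and Cemip, whose PBS means were 0.779, 0.623 and 1.83 FPKM. In those settings the kept direction of these genes is no test of it. Hyal2 ranged from -0.0083 to 0.28 with 1 sample left out and passed only without PBS 4, when 8 members were called. The count of genes called was 8771 as reported, 7147 to 9171 over the other settings and 8287 to 8541 with 1 sample left out; for transcripts it was 8080, 6448 to 8553 and 7081 to 7444. As deposited, 66.6% of the genes called were higher (5845 against 2926). After median-of-ratios scaling this was 51.8% (4497 against 4181), and after quantile normalization, 44.1% (3930 against 4990). For transcripts the split was 5362 against 2718, then 4479 against 3402 and 4086 against 4035. Taking a gene as the sum of its listed transcripts, a setting chosen after seeing the data, called 7836 genes and the same 7 members. A pseudocount of 0.1 in place of 1 raised the log2 change of Vcan to 5.30, of Vcan-203 to 5.06, of Vcan-206 to 4.02, of Vcan-208 to 3.48, of Tnfaip6 to 2.61, of Gfpt2 to 2.59 and of Cd44-205 (not called) to 1.12, and took Cd44-207 to -4.22. Quantile normalization lowered Gfpt2 to 0.83, Pgm3 to 0.47 and Cd44-205 to 0.35. Over single samples left out, the share of Cd44-203 differed by 11.1 to 15.1 points and that of Cd44-201 by -18.0 to -10.0 points; with 35 assignments no such p can fall below 0.0571.

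Replicate numbers 1 to 4 occur in both groups, but no label says what they pair. Same-numbered samples deviated together with r of 0.0527 to 0.121, and 3 of 4 numbers matched best with themselves. With the replicate number as a block 8519 genes, 6819 transcripts and 7 members were called, Vcan-206 missed the threshold (limma, adjusted p = 0.0597), and the adjusted p of the Cd44-203 share was 0.208 (exact sign-flip permutation, 16 assignments, smallest p 0.125).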
